A study of Mus musculus with 2 samples.

Results

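The genes described here are 7 members of the plasminogen system and of the extracellular clotting and matrix proteins that work beside it, namely *Serpinb2*, *Plau*, *Plaur*, *Plat*, *F10*, *F13a1* and *Thbs1*. They were found by symbol among the 32589 genes of the single-cell tables, and all 7 were present. They were selected on the contrast between the 2 libraries, in which *Serpinb2* was among the genes with the highest ratio, so every difference between the libraries below is a description of the values that chose them and carries no test. Both libraries came from mouse livers bearing cholangiocarcinomas (CCAs), which had been started by hydrodynamic tail vein injection (HDTVI) of plasmids for the Notch receptor domain NICD and for myr-AKT. All animals carried a doxycycline-inducible shRNA against *Yap1* and *Wwtr1* (shYT) under CAG-rtTA3, which is active throughout the body, so that the shRNA also acts in stroma and immune cells, in the controls as well. The shRNA was switched on at day 25 after HDTVI and livers were analyzed on day 33. One group received PBS and the other the anti–PD-1 antibody RMP1-14 by intraperitoneal injection on days 26, 29 and 32. There was 1 library per group. The experiment is described with n = 4 per group, but whether each library pools 4 animals, of which sex and of which of the 2 shYT lines is not given in the sources used here.

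Plasminogen is a circulating precursor that is cut to plasmin, a protease that dissolves fibrin and opens the extracellular matrix. The cut is made by urokinase (*Plau*), which acts on cell surfaces while bound to its receptor uPAR (*Plaur*), and by tissue plasminogen activator (*Plat*), which acts mostly on fibrin. *Serpinb2* encodes plasminogen activator inhibitor 2, a clade B serpin that inhibits urokinase in the test tube and is known as one of the strongly inducible genes of activated macrophages. On the clotting side, factor X (*F10*) makes thrombin once activated, and the A subunit of factor XIII (*F13a1*) crosslinks fibrin and is a gene of monocytes and resident macrophages. Thrombospondin 1 (*Thbs1*) is a matricellular protein that binds CD36 and CD47 and activates latent TGF-β.

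The 7 genes lie on 6 mouse chromosomes and form no cluster. In GRCm38 (mm10), *Serpinb2* (ENSMUSG00000062345) lies at chr1:107511423-107535478, *Plau* (ENSMUSG00000021822) at chr14:20836660-20843385, *Plaur* (ENSMUSG00000046223) at chr7:24462484-24475968 and *Thbs1* (ENSMUSG00000040152) at chr2:118111876-118127133, all on the forward strand. *Plat* (ENSMUSG00000031538, chr8:22757727-22782844) and *F10* (ENSMUSG00000031444, chr8:13037308-13056676) share chromosome 8 on the forward strand, and *F13a1* (ENSMUSG00000039109, chr13:36867178-37050244) is on the reverse strand. RefSeq promoter sequences (GRCm38.p6) matched 4 of the 7 members, *Serpinb2*, *Plaur*, *F10* and *F13a1*. The 250 bases before the start of *Serpinb2* (chr1:107511173-107511422, forward strand) and of *Plaur* (chr7:24462233-24462482, forward strand) are shown because both genes were past 2-fold higher after anti–PD-1 in mononuclear phagocytes. For *Serpinb2* this is the upstream one of 2 RefSeq starts that lie 87 bases apart. Capitals mark TGANTCA, the AP-1 core with any middle base, and TATAAA, each searched on both strands.
Serpinb2: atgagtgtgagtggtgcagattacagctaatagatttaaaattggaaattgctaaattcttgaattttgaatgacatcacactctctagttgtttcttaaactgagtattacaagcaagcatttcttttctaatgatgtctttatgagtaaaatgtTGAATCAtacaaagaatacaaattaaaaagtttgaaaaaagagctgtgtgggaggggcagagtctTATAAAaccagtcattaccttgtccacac
Plaur: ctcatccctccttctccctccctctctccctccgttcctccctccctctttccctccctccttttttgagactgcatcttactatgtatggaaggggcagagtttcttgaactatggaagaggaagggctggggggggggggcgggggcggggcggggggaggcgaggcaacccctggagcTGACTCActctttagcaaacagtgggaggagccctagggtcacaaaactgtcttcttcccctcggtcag
Both motifs also lie in the window of the other *Serpinb2* start. The *Serpinb2* window shown held TGANTCA starting 94 bases and TATAAA starting 29 bases before the start. The *Plaur* window held TGANTCA starting 69 bases before the start and no TATAAA. Neither motif was found in the windows of *F10* and *F13a1*. Of 32851 RefSeq promoters, 6.75% held TGANTCA and 12.4% held TATAAA in the same window, so each match describes letters and not a used site.

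The PBS library kept 15531 cells and the anti–PD-1 library 16360. Their median depth was 3159 and 2990 UMIs (unique molecular identifiers, each counting one captured transcript), after limits of 500 and 5000 genes per cell and 10% mitochondrial UMIs. Cells were given 1 of 22 classes by marker genes that include none of the 7 members, and levels are CPM (UMIs of the gene per 1000000 UMIs of all cells of the class in a library) with exact Poisson 95% intervals, which cover counting error only. No class had more markers of another class than of its own among its 10 leading genes. The classes were drawn with these same markers, so this is no check of them. *F10* and *F13a1* themselves were among the leading genes of monocytes. The libraries differed in other ways that move with the contrast. Among kept cells *Xist* had a UMI in 45.7% (PBS) and 0.0672% (anti–PD-1), and *Ddx3y* in 7.04% and 30.9%, so the sex makeup of the libraries and the treatment cannot be told apart. Free RNA was present, since the neutrophil gene *S100a8* had a UMI in 18.2% of T cells after PBS and 66.0% after anti–PD-1. Of the barcodes of kept cells, 145 occurred in both libraries.

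*Serpinb2* was found mostly in a very small set of cells with the markers of peritoneal macrophages, the resident macrophages of the body cavity that depend on the transcription factor GATA6. These cells were gated as mononuclear phagocytes with at least 3 of the 6 genes *Gata6*, *Prg4*, *Garnl3*, *F5*, *Selp* and *Alox15*. After PBS the gate held 18 cells, or 0.116% of kept cells (0.0687 to 0.183, exact binomial interval). After anti–PD-1 it held 76 cells, or 0.465% (0.366 to 0.581). These 18 cells carried 139 of the 216 *Serpinb2* UMIs of their library (64.4%), and the 76 carried 3003 of 3634 (82.6%). In both libraries, then, fewer than 1 in 100 cells held the larger part of the transcript. Whether the gated cells lay in the tumor or liver, or were carried over from the body cavity at harvest, cannot be told here.

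Within the gate *Serpinb2* stood at 876 CPM (737 to 1034) in the PBS library and at 2911 CPM (2808 to 3017) in the anti–PD-1 library, a ratio of 3.32 (2.80 to 3.97). The gates differed in makeup, since 9 of 18 and 58 of 76 cells had at least 4 markers, and in those cells the level was 1492 and 3250 CPM, a smaller ratio. Single cells of the gate ranged from 0 to 39 *Serpinb2* UMIs with a median of 5 in the PBS library, and from 0 to 150 in the anti–PD-1 library, where the median was 30. The ranges overlapped. The anti–PD-1 cells of the gate were also deeper, with a median of 13679 UMIs against 7570. After each cell was thinned to 1000 UMIs, a *Serpinb2* UMI was left in 8 of 18 (44.4%, 21.5 to 69.2) and 62 of 76 (81.6%, 71.0 to 89.5), against 61.1% and 90.8% at full depth. The PBS gate is below the 50 cells set as the minimum for a class, and its values are given because the transcript sits there.

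The level of *Serpinb2* followed the number of peritoneal markers in a cell, counted over all classes. In the PBS library it was 0.626 CPM in the 13619 cells without a marker, 1.20 CPM with 1, 13.7 CPM with 2 and 44.8 CPM with 3 markers. It was then 713 CPM in the 1 cell with 4 markers, 2384 CPM in the 3 cells with 5 and 1088 CPM in the 5 cells with all 6. In the anti–PD-1 library the same steps gave 6.12, 7.62, 16.8, 469, 1572, 3572 and 3473 CPM, over 13814, 2228, 215, 39, 16, 24 and 24 cells. Of cells with at least 4 markers, 9 of 9 after PBS and 62 of 64 after anti–PD-1 had a *Serpinb2* UMI. Deeper cells show more markers, and CPM divides by depth while the number of markers does not, so this series is a description of how the transcript is spread.

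**Figure D1:**
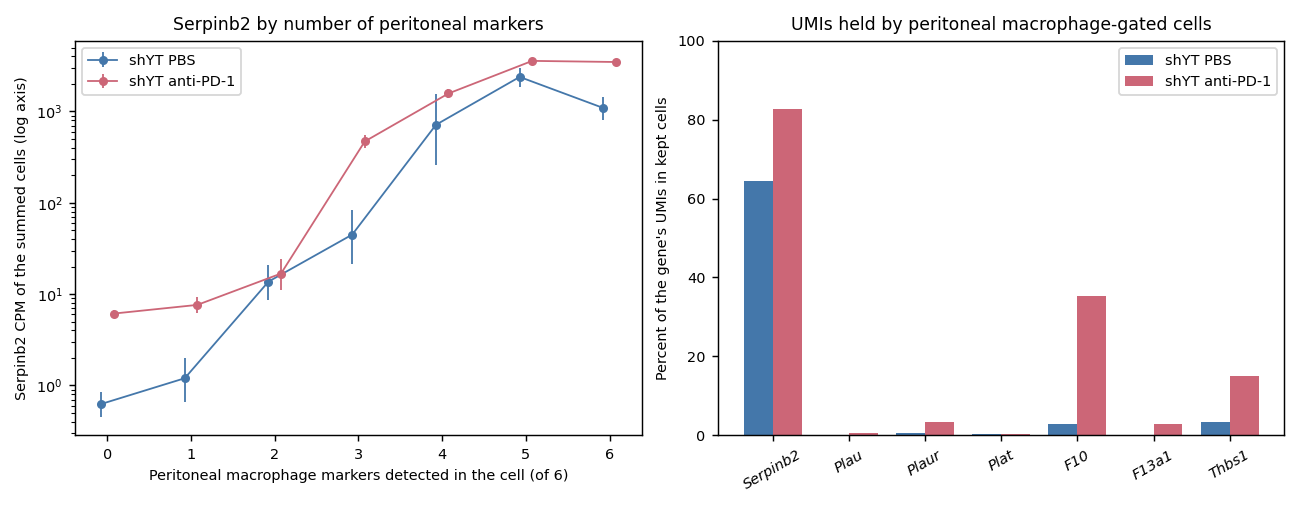
Left, CPM of *Serpinb2* (log axis) against the number of peritoneal macrophage markers detected in a cell, summed over the cells with that number in each library, with exact Poisson 95% intervals. Right, percent of each gene's UMIs in kept cells that lay in the peritoneal macrophage-gated cells, 18 in the PBS and 76 in the anti–PD-1 library. *Serpinb2* passes 400 CPM from 3 markers on in the anti–PD-1 library, and 64.4% and 82.6% of its UMIs lie in the gate.

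The gated cells carried general macrophage genes too, since *C1qa* had a UMI in 16 of 18 and 74 of 76, and *Csf1r* in 13 and 70. Their leading genes over all other cells included *Prg4*, *Saa3*, *Alox15*, *Serpinb2*, *Slpi*, *F5*, *Cxcl1*, *Fn1* and *Il6*. *Slpi*, a secreted protease inhibitor, was at 18915 CPM in the PBS and 19325 CPM in the anti–PD-1 cells, and *Prg4* (lubricin) at 8610 and 6571 CPM. The chemokine gene *Cxcl1* had no UMI in the 18 PBS cells and 2703 CPM in the anti–PD-1 cells. *Il6* was at 6.30 CPM (1 UMI) and 1142 CPM there. *Saa3* was lower after anti–PD-1, at 28230 CPM in the PBS and 9666.5 CPM in the anti–PD-1 cells. *Cxcl1*, *Il6*, *Saa3*, *Slpi* and *Prg4* were named after their values were seen. *Clec4f*, the Kupffer cell lectin, had a UMI in 6 of the 18 and 39 of the 76 cells (T cells, 8.88% and 30.2%), and at least 3 markers of a class other than mononuclear phagocytes were found in 4 and 44 of the gated cells, which held 39 and 2073 of the *Serpinb2* UMIs. Doublets and free RNA were not told apart in these cells.

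Outside the gate 77 *Serpinb2* UMIs were left in 48 cells after PBS and 631 in 389 cells after anti–PD-1, and 336 of the latter had 1 UMI each. The macrophage class had 0.358 CPM (0.179 to 0.641) in the PBS and 5.68 CPM (4.49 to 7.09) in the anti–PD-1 library. Kupffer cells had no UMI in the PBS library, with an exact upper limit of 0.660 CPM (0.537 CPM for 3 counts), and 5.62 CPM (4.42 to 7.03) in the anti–PD-1 library. T cells, which are not known as a source of *Serpinb2*, had 0.191 CPM (0.0232 to 0.691) and 3.92 CPM (2.98 to 5.07). At 1000 UMIs per cell, 0.594% of macrophages, 0.831% of Kupffer cells and 0.927% of neutrophils of the anti–PD-1 library had a *Serpinb2* UMI, against 0.465% (0.261 to 0.766) of T cells. The intervals of macrophages (0.272 to 1.12), Kupffer cells (0.430 to 1.45) and neutrophils (0.601 to 1.37) overlapped that of T cells, and the difference of the shares was not tested. At full depth the shares were 3.57%, 3.48%, 1.81% and 1.54%, at median depths of 7514, 8558, 2059 and 3706 UMIs. On the CPM scale the interval of neutrophils, 9.17 (6.99 to 11.8), lay above that of T cells, while those of macrophages and Kupffer cells overlapped it. *Prg4* stood at 6.41 CPM in macrophages, 8.94 CPM in Kupffer cells, 10.8 CPM in neutrophils and 9.26 CPM in T cells of that library.

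Monocytes were the class next in line in the PBS library, with 28 *Serpinb2* UMIs or 8.32 CPM (5.53 to 12.02), above the interval of T cells, and 37 UMIs or 13.1 CPM (9.23 to 18.1) in the anti–PD-1 library. The intervals of the libraries overlapped. At 1000 UMIs per cell, 0.615% (0.127 to 1.79) and 0.946% (0.258 to 2.40) of monocytes had a *Serpinb2* UMI, which overlaps the 0.465% of T cells after anti–PD-1 but lies above the limit of 0.120% for T cells after PBS. *Prg4* stood at 1.19 and 7.79 CPM in the same monocytes. Cancer-associated fibroblasts (CAFs) had 0.425 CPM (0.0107 to 2.37) in the PBS library, from 1 UMI in 449 cells. In the anti–PD-1 library they had 44.3 CPM (31.8 to 60.1) from 41 UMIs in 11 of 174 cells. Of those cells, 4 had 5 or more UMIs. With 5 CPM added to both levels, the log2 ratio was 3.18 (2.57 to 3.60) in CAFs, resting on that 1 PBS UMI, and 1.73 (1.48 to 1.98) in the gate. B cells had 0.892 CPM from 2 UMIs in the PBS library. They had 13.7 CPM in the anti–PD-1 library, with 74 UMIs in 26 of 1666 cells, 40 of them in 1 cell. Counted over all classes, 10 cells after PBS and 72 after anti–PD-1 had 5 or more *Serpinb2* UMIs, and 9 and 61 of these had at least 3 peritoneal markers.

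Summed over all mononuclear phagocytes (monocytes, macrophages, Kupffer cells and the peritoneal gate), *Serpinb2* was at 4.47 CPM (3.84 to 5.18) in the PBS and 102.6 CPM (99.1 to 106.3) in the anti–PD-1 library, a log2 ratio of 3.51 (3.39 to 3.62) after adding 5 CPM to both. Without the peritoneal gate the levels were 0.983 and 6.35 CPM and the log2 ratio was 0.92 (0.78 to 1.06). This low ratio follows from the 5 CPM added to a PBS level under 1 CPM, since the levels themselves differed 6.46-fold (4.55 to 9.36) from 39 and 191 UMIs. The remaining 6.35 CPM (5.48 to 7.32) compares with 3.92 CPM (2.98 to 5.07) in T cells of the same library. The gate made up 18 of 4757 mononuclear phagocytes in the PBS and 76 of 3737 in the anti–PD-1 library. Mononuclear phagocytes also differed in makeup, with 3616 and 1681 macrophages, 631 and 1553 Kupffer cells and 492 and 427 monocytes, so the values of single classes are given below.

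Of the 7 members, 3 were at least 2-fold higher in mononuclear phagocytes of the anti–PD-1 library (*Serpinb2*, *Plaur* and *Thbs1*) and 1 at least 2-fold lower (*F13a1*). Among all 15548 genes with at least 20 UMIs in these cells, 1.93% were that much higher and 0.560% that much lower. The members were selected on this contrast, so nothing is read from the counts. In monocytes *Plaur* and *Thbs1* were past 2-fold higher and *F13a1* lower, of 6 members with 20 UMIs (all genes, 3.64% and 1.49%). In macrophages *Plaur* and *Thbs1* were past it, with *Serpinb2* just short of it (1.00 after rounding, through the added 5 CPM, the ratio of its levels being 15.9, 8.39 to 33.1) and *F13a1* at -0.96 (all genes, 1.94% higher and 0.379% lower). In Kupffer cells *Serpinb2* and *Thbs1* were past it (all genes, 1.86% and 0.242%), where the ratio of *Serpinb2* rests on a PBS level of 0 and so on the added 5 CPM. In neutrophils *Serpinb2*, *Plaur* and *Thbs1* were past it and *F13a1* was lower, of 6 members (all genes, 2.22% and 4.73%). The log2 ratio of *Serpinb2* there, 1.37 (0.83 to 1.65), rests on 1 PBS UMI against 60 and so on the added 5 CPM. *F13a1* had only 38 and 29 UMIs in neutrophils. In B cells *Serpinb2*, *Plaur*, *F10* and *Thbs1* were past it, of 6 members (all genes, 1.71% and 2.04%). There *F10* rests on 1 PBS UMI against 56. In T and NK cells *Plaur* and *Thbs1* were, of 7 and 3 members (1.17% and 0.663%, 2.53% and 2.66%). In tumor and biliary cells both were and *Plat* was lower, of 4 (2.59% and 2.37%). In CAFs only *Serpinb2* was, of 6 (3.33% and 2.91%), and in endothelial cells none, of 4 (3.24% and 6.34%).

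**Figure D2:**
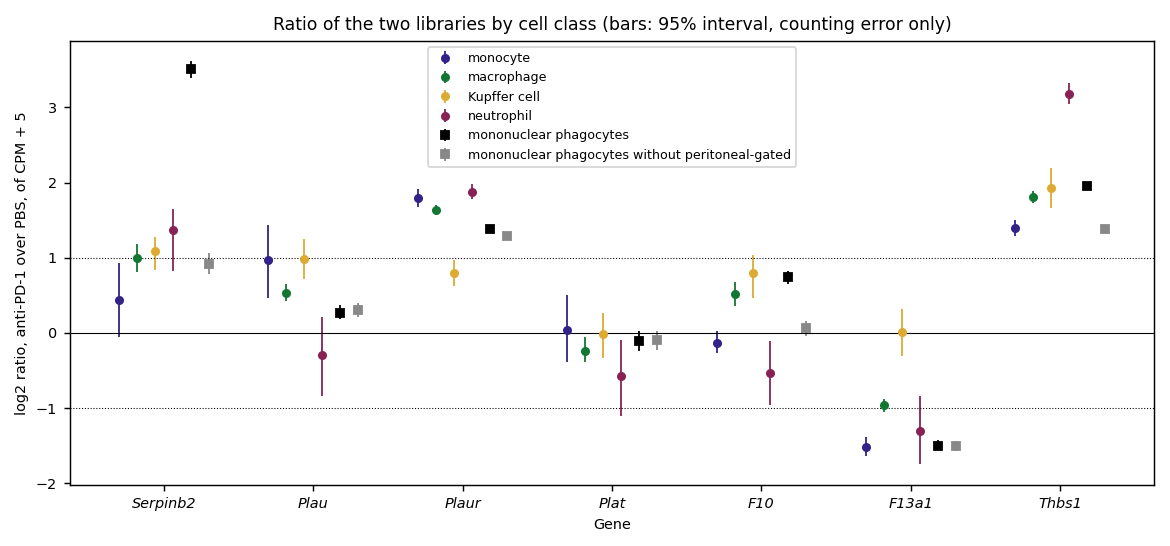
Log2 ratio of CPM + 5, anti–PD-1 over PBS library, for each of the 7 genes in 4 cell classes and in all mononuclear phagocytes with and without the peritoneal macrophage-gated cells, with 95% intervals from counting error. Dotted lines mark 2-fold. Leaving out the gated cells takes *Serpinb2* from 3.51 to 0.92 on this scale (from 23.0-fold to 6.46-fold in the levels without the added 5 CPM) and *F10* from 0.74 to 0.06 and moves *Plau*, *Plat* and *F13a1* little.

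*Plau*, the gene of urokinase, was mostly a transcript of the macrophage class, which held 78.1% of its UMIs in the PBS and 54.1% in the anti–PD-1 library. Its level in macrophages was 44.6 CPM (42.2 to 47.0) and 66.8 CPM (62.5 to 71.3), and in Kupffer cells 14.3 CPM (11.3 to 17.8) and 33.2 CPM (30.2 to 36.4). Among classes of at least 50 cells in both libraries, endothelial cells came next to macrophages in the PBS library, at 36.0 CPM (29.1 to 44.1) and 41.1 CPM (24.4 to 65.0), where the intervals overlapped. Monocytes had 5.35 and 15.2 CPM. In the peritoneal gate *Plau* had 1 UMI in the PBS and 10 UMIs in the anti–PD-1 library, or 9.69 CPM (4.65 to 17.8), so the cells with most of the inhibitor *Serpinb2* had less *Plau* than macrophages of the same library. The ratio between libraries was 1.50 (1.38 to 1.63) in macrophages, 2.32 (1.82 to 2.98) in Kupffer cells and 2.85 (1.61 to 5.25) in monocytes. Over all kept cells the level of *Plau* was 22.1 and 21.8 CPM, while macrophages made up 23.3% and 10.3% of the cells.

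*Plaur*, the urokinase receptor, was spread over myeloid cells, plasmacytoid dendritic cells (pDCs) and B cells, with higher levels after anti–PD-1 in most of the classes given below. Neutrophils had 396 CPM (369 to 424) and 1470 CPM (1441 to 1500), a ratio of 3.71 (3.46 to 3.99). Monocytes had 228 CPM (212 to 245) and 803 CPM (770 to 836), macrophages 107 CPM (104 to 111) and 343 CPM (334 to 353), and Kupffer cells 54.9 CPM (48.9 to 61.4) and 99.1 CPM (93.8 to 104.5). The order of these 4 classes was the same in both libraries, with no overlap of intervals. In the peritoneal gate *Plaur* had 271 CPM (196 to 365) and 875 CPM (819 to 934), each overlapping the interval of monocytes of the same library.

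Lymphoid cells with *Plaur* were B cells, at 125 CPM (111 to 140) and 668 CPM (647 to 690), while T cells had 10.8 and 52.6 CPM. pDCs had 288 CPM (238 to 345) and 1267 CPM (1147 to 1396), from 77 and 52 cells. At 1000 UMIs per cell, *Plaur* was found in 12.7% (10.6 to 15.0) and 46.1% (43.7 to 48.6) of B cells, against 0.947% and 4.56% of T cells. The summed level of 6 neutrophil markers was 316 and 1736 CPM in B cells and 242 and 1039 CPM in T cells, so neutrophil RNA moved with the library in both, and its part in the *Plaur* values was not tested. NK cells had 9.44 CPM (4.88 to 16.5) and 59.3 CPM (50.1 to 69.7) of *Plaur*. Tumor and biliary epithelial cells had 17.1 CPM (13.7 to 21.1) and 46.4 CPM (37.3 to 57.2). Endothelial cells had 83.2 CPM (72.5 to 95.01) and 84.6 CPM (59.5 to 116.6), with a ratio of 1.02 (0.697 to 1.45).

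Among neutrophils, monocytes, macrophages and Kupffer cells, *Thbs1* had its highest ratio between libraries in neutrophils, at 202 CPM (183 to 223) in the PBS and 1870 CPM (1837 to 1903) in the anti–PD-1 library, a ratio of 9.24 (8.39 to 10.2). Neutrophils held 6.41% of *Thbs1* UMIs in the PBS and 43.6% in the anti–PD-1 library, while their number was 1204 and 2810 cells. At 1000 UMIs per cell, 9.97% (8.25 to 11.9) and 52.7% (50.8 to 54.6) of neutrophils had a *Thbs1* UMI, and 3.42% (2.42 to 4.68) and 34.6% (32.8 to 36.5) had both *Thbs1* and *Plaur*. The share with *Plaur* was 24.3% and 62.4%. A joint share rises with the 2 single shares, and whether it went beyond them was not tested. The corresponding shares of T cells with *Thbs1* were 0.653% and 3.16%.

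In the other myeloid classes *Thbs1* stood at 329 CPM (310 to 349) and 873 CPM (839 to 908) in monocytes, 66.1 CPM (63.2 to 69.0) and 244 CPM (236 to 253) in macrophages, and 10.9 CPM (8.35 to 14.0) and 55.6 CPM (51.7 to 59.8) in Kupffer cells. The summed neutrophil markers in the same cells were at 1306 and 1754 CPM in monocytes, 408 and 728 CPM in macrophages and 316 and 916 CPM in Kupffer cells, and the part of neutrophil RNA in these *Thbs1* and *Plaur* values was not tested. The peritoneal gate had the highest level of any class in both libraries, 1412 CPM (1233 to 1609) and 4059 CPM (3937 to 4184). CAFs, matrix-producing cells that are a classical source of thrombospondins, had 540 CPM (511 to 571) and 549 CPM (502 to 599), a ratio of 1.02 (0.915 to 1.13). Endothelial cells had 80.5 CPM (70.0 to 92.1) and 64.0 CPM (42.5 to 92.5). Levels were higher after anti–PD-1 in B cells (14.7 and 89.0 CPM), T cells (11.7 and 39.1 CPM) and NK cells (10.2 and 34.5 CPM). Tumor and biliary epithelial cells had 32.8 and 130.4 CPM. The level in mononuclear phagocytes was 85.9 and 346 CPM with the gate and 80.6 and 219 CPM without it, so the gate, 2.03% of these cells in the anti–PD-1 library, carried 38.9% of their *Thbs1*.

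**Figure D3:**
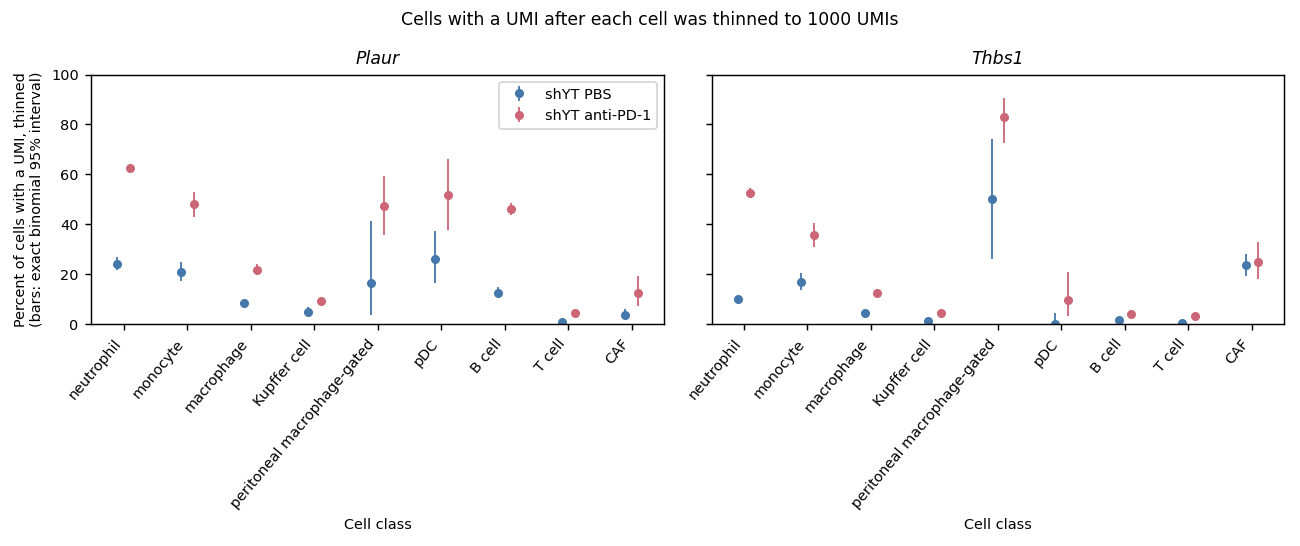
Percent of cells with a UMI of *Plaur* (left) or *Thbs1* (right) after each cell was thinned to 1000 UMIs, by cell class and library, with exact binomial 95% intervals. In neutrophils the percent with *Plaur* is 24.3 and 62.4 and with *Thbs1* 9.97 and 52.7 in the PBS and anti–PD-1 library, and in CAFs *Thbs1* is at 23.7 and 25.0.

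Genes induced by cell handling and stress were also higher in the anti–PD-1 library. Of 16 genes of a dissociation stress list, 16 had a ratio above 0 in mononuclear phagocytes and 10 were past 2-fold higher, with a median log2 ratio of 1.29 against -0.07 over all genes tested. *Fos* was at 886 and 2171 CPM there, *Atf3* at 189 and 806 CPM and *Hspa1a* at 236 and 988 CPM. The summed list stood at 6310 and 15894 CPM in macrophages and 2597 and 16635 CPM in the peritoneal gate. In neutrophils it was at 14301 and 16011 CPM, with 2 genes past 2-fold higher and 2 lower. Beside this, neutrophils had a *Thbs1* ratio of 9.24, a *Plaur* ratio of 3.71 and 1 and 60 *Serpinb2* UMIs. In CAFs 12 of the 16 were past 2-fold higher (median log2 ratio 2.10). Beside this, CAFs had a *Thbs1* ratio of 1.02, a *Plaur* ratio of 1.89 (1.36 to 2.63) and 1 and 41 *Serpinb2* UMIs (0.425 and 44.3 CPM). The part of stress in the values of *Plaur*, *Thbs1* and *Serpinb2* was not tested.

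*Plat*, the gene of tissue plasminogen activator, was a transcript of stromal cells. CAFs held 57.2% and 57.7% of its UMIs, at 315 CPM (292 to 338) and 348 CPM (311 to 388), with a ratio of 1.11 (0.967 to 1.26). Among classes of at least 50 cells in both libraries, endothelial cells followed at 63.2 CPM (54.0 to 73.7) and 34.3 CPM (19.2 to 56.5). Tumor and biliary epithelial cells had 18.9 CPM from 95 UMIs in the PBS and 3.69 CPM from 7 UMIs in the anti–PD-1 library. Mononuclear phagocytes had 1.86 and 1.35 CPM. Over all kept cells *Plat* was at 16.4 and 7.18 CPM, while CAFs made up 2.89% (2.63 to 3.17) and 1.06% (0.912 to 1.23) of the cells.

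*F10* was a gene of monocytes, at 255 CPM (238 to 272) in the PBS and 232 CPM (215 to 251) in the anti–PD-1 library, for a ratio of 0.912 (0.823 to 1.01). Macrophages had 16.1 CPM (14.7 to 17.5) and 25.3 CPM (22.7 to 28.1). The peritoneal gate had 284 CPM (207 to 380) and 830 CPM (775 to 887), and the 76 gated cells of the anti–PD-1 library held 35.2% of its *F10* UMIs, against 2.81% in the 18 PBS cells. In mononuclear phagocytes the log2 ratio of *F10* was 0.74 (0.65 to 0.83) with the gate and 0.06 (-0.04 to 0.16) without it. The hepatocyte gate, in the cell type that makes plasma factor X, held only 38 and 11 cells with 13 and 10 *F10* UMIs.

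*F13a1* had lower levels in monocytes and macrophages of the anti–PD-1 library. Monocytes had 655 CPM (628 to 683) and 226 CPM (209 to 244), 2.90-fold lower, and macrophages 194 CPM (189 to 199) and 96.9 CPM (91.7 to 102.2), 2.00-fold lower. Kupffer cells had 9.30 CPM (6.95 to 12.2) and 9.38 CPM (7.82 to 11.2), with a ratio of 1.01 (0.725 to 1.42). At 1000 UMIs per cell, 38.5% (34.2 to 43.0) and 16.5% (13.1 to 20.4) of monocytes had an *F13a1* UMI. The share with *F10*, the other clotting gene of monocytes, was 19.1% (15.7 to 22.8) and 16.1% (12.7 to 19.9) in the same cells. Peritoneal macrophage-gated cells had 72 *F13a1* UMIs in 4 of 76 cells of the anti–PD-1 library and 3 UMIs in 2 of 18 cells of the PBS library.

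**Figure D4:**
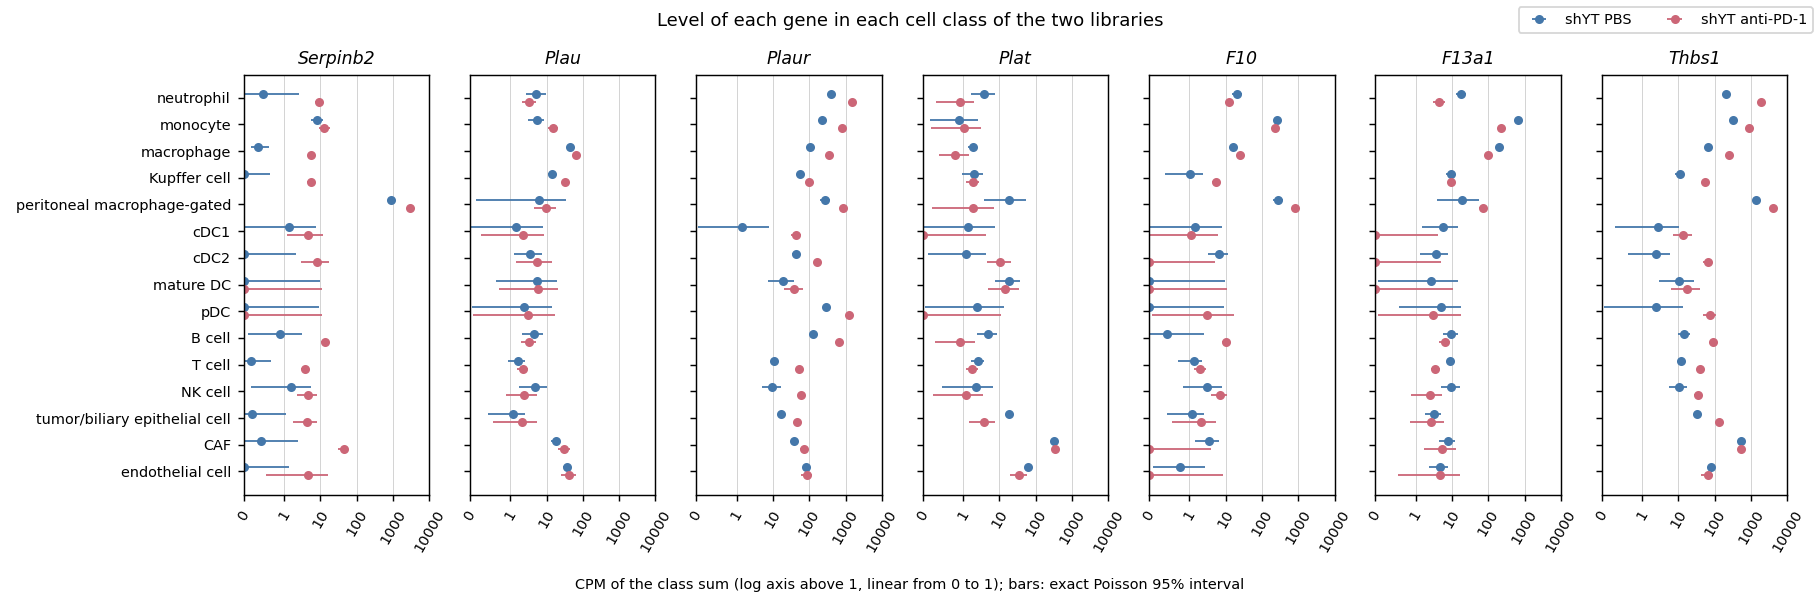
CPM of each of the 7 genes (columns; log axis above 1 CPM, linear from 0 to 1) in 15 cell classes (rows) of the PBS and anti–PD-1 library, with exact Poisson 95% intervals. *Serpinb2* is at 876 and 2911 CPM in the peritoneal macrophage-gated cells and at or below 44.3 CPM in every other class shown, *Plat* is highest in CAFs, and *F13a1* is highest in monocytes.

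Other genes of the pathway, from lists chosen with earlier results of these data known, mostly stayed within 2-fold in mononuclear phagocytes. The median log2 ratio of 14 plasminogen system partners was -0.06 (all genes, -0.07). Of these 14, 1 was past 2-fold lower, *Vtn* (vitronectin, a matrix protein that binds uPAR), at 22.2 and 6.56 CPM and a log2 ratio of -1.24. *Vtn* was also lower in neutrophils, at 48.5 and 9.17 CPM, above its levels in mononuclear phagocytes in each library. The part of free RNA in these *Vtn* values was not tested. Plasminogen itself (*Plg*) had 23 and 9 UMIs. Of 24 coagulation genes with 20 UMIs, 3 were past 2-fold higher, namely *F3* (tissue factor, the starter of clotting, 1.63, or 1.11 without the peritoneal gate, and with 0 UMIs after PBS and 220 after anti–PD-1 in the gate), *Fgl2* (1.48) and the transglutaminase *Tgm2* (1.36), and 0 were lower. In monocytes, macrophages and Kupffer cells *Fgl2* was at 1.62, 1.55 and 1.27 and *Tgm2* at 1.05, 1.31 and 0.49.

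Of 11 metalloproteinase genes and inhibitors, *Mmp13* was past 2-fold higher at 8.89 and 24.1 CPM (1.07) and *Mmp2* lower at 27.3 and 10.5 CPM (-1.06). *Mmp2* was at 33.2 and 20.8 CPM in macrophages (-0.57), 8.76 and 2.73 CPM in Kupffer cells (-0.83) and 2.38 and 1.06 CPM in monocytes (-0.28), where the ratios of the low levels are drawn in by the added 5 CPM, and it had 11 UMIs after PBS and 1 after anti–PD-1 in the peritoneal gate. Of the 6 clade B serpins with 20 UMIs other than *Serpinb2*, 1 was past 2-fold higher, *Serpinb6b*, at 5.07 and 15.3 CPM (1.01), which is named here because it is the only one. In monocytes, macrophages and Kupffer cells its log2 ratio was 0.64, 0.74 and 1.04. Of 10 thrombospondins and receptors, 0 were past 2-fold in either direction, *Cd47* being at 293 and 418 CPM (0.51) and *Cd36* at 83.6 and 109 CPM (0.37). In the same 3 classes *Cd47* was at 0.09, 0.37 and 0.02, each below its pooled value, and *Cd36* at 0.71, 0.11 and -0.03.

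The genes with the most similar pattern were sought over 18 points, the sums of 9 classes with at least 100 cells in each library, as Pearson's r of log2(CPM + 5) among 13840 genes. The points share 2 libraries and are not independent, so r is a description. *F13a1* was most like *F7* (0.966), *Ms4a4a* (0.964) and *Dpep2* (0.953), and *F10* most like *Dna2* (0.953), *Prtn3* (0.936) and *Gm21188* (0.928). *Plat* was most like *Prss35*, *Serpina3n* (both 0.993) and *Zfp9* (0.992), and *Plau* most like *Gatm* (0.913), *Axl* (0.903) and *Rab7b* (0.902). *Plaur* was most like *Nuak2* (0.863), *Sbno2* (0.857) and *Tiparp* (0.851), and *Thbs1* most like *Ndrg1* (0.838), *Ptgs2* (0.826) and *Smim3* (0.821). For *Serpinb2*, which was at or below 44.3 CPM in all 18 points, they were *Car1* (0.828), *Klk1* (0.813), *Try4* (0.810), *Try5* (0.805) and nonagouti (0.804), of which *Car1* and the *Try* genes are known from erythroid and pancreatic acinar cells. With the peritoneal gate added as 2 points, an addition made after the values were seen, they were *Garnl3* (0.929), *Alox15* (0.928), *Prg4* (0.918), *Selp* (0.905) and *Saa3* (0.896), of which the first 4 define the gate. Among pairs of members, *F10* and *F13a1* had the highest r over the 18 points (0.862), with 0.679 for *Plaur* and *Thbs1*. Over the 20 points with the gate the highest were *Serpinb2* and *F10* (0.728), *Plaur* and *Thbs1* (0.721) and *F10* and *F13a1* (0.717). For *Serpinb2* and *F10* r was 0.271 over the 18 points, so the higher value comes with the 2 points of the gate.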

How the data were processed

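Single-cell RNA-Seq (Singleron GEXSCOPE) was analyzed in 2 libraries, grouped by the treatment label. The files deposited by the authors hold raw UMI counts per gene and barcode, made with Cell Scope (Singleron) against mm10, and the submitters' notes name Seurat 4.3. The annotation and the handling of strand were not given in the sources used here. Kept cells had 500 to 5000 genes and at most 10% mitochondrial UMIs, as in the study. Each marker was weighted by 1 minus its share of cells, and a cell took the lineage with the highest weighted share of markers detected, with at least 3 markers and a lead of 0.1 over the next. A smaller lead left 869 PBS and 1607 anti–PD-1 cells ambiguous, and 1839 and 1636 had no class. This rule can take out doublets of different lineages, but doublets were not counted and no doublet caller was run. Of neutrophils 85 and 356, and of macrophages 248 and 283, lay within 0.1 of the cut. Mononuclear phagocytes with 3 of 6 peritoneal markers formed the peritoneal gate. The scoring rule was set after the data were seen. The members, markers and lists were chosen with earlier results of these data known. The named genes were, besides those said to be picked after their values were seen and stress genes, all members, list genes past 2-fold in mononuclear phagocytes (up to 5 each way) and the genes of highest r. The values of 1 list gene are not reported here. With 1 library per group no test was possible. Counts were summed per class with Python 3 (numpy, scipy), given as CPM with exact Poisson intervals, and compared as log2 ratios of CPM + 5. Shares carry Clopper-Pearson intervals. All intervals are at 95%. The gate, thinning to 1000 UMIs, scaling, filters and pseudocount were varied. Ratios over all genes and the likeness measure were tested on simulated data.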

Additional observations from a re-analysis of the deposited data

How the results depend on the processing

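No paired analysis was possible because each group has 1 library. Of 70 values of the 7 members in mononuclear phagocytes under the 10 alternative settings, 67 kept their direction. The exceptions were *Plat*, near 0 throughout, at 0.05 with median-ratio scaling, 0.12 after thinning and 0.11 in cells with a Y-linked UMI and no *Xist* UMI. The log2 ratio of *Serpinb2* (3.51) was 3.63 with cells of 200 or more genes (no upper limit) and up to 20% mitochondrial UMIs, 4.24 and 2.96 with 1 and 10 CPM added, 3.67 with median-ratio scaling (which takes out a median log2 ratio of -0.16 and so raises every ratio by that much), 3.13 after thinning, 2.25 without the 1% of cells with most of its UMIs (0 PBS UMIs were left against 570, so this value rests on the added 5 CPM), and 4.52 in cells with a Y-linked UMI and no *Xist* UMI, where only 3 PBS UMIs were left in 529 cells. It was 0.92 without the peritoneal gate, where the levels without the added 5 CPM still differed 6.46-fold. It was 3.56 with a stricter and 3.50 with a looser marker gate. With alternatives chosen after seeing the data it was 1.15 when the gate was drawn without *Alox15* and left out, 0.86 without phagocytes with 2 or more peritoneal markers, and 0.73 when monocytes, macrophages and Kupffer cells weighed equally. This last setting also leaves out the gate, so it compares with 0.92 and not with 3.51. Drawn without *Alox15*, the gate held 11 and 64 cells with 59.7% and 80.5% of *Serpinb2* UMIs. The count of members past 2-fold (4, of which 3 higher and 1 lower, beside 387 of all 15548 genes) lay between 3 and 5. It was 5 in cells with a Y-linked UMI and no *Xist* UMI, where *F10* joined from 62 PBS UMIs. The share over all genes is not given for settings that changed the cells, so nothing is read from these counts. In the Y-linked cells *Thbs1* went from 1.95 to 2.78 and *F10* from 0.74 to 2.02. *F10* went to -0.01 and -0.04 without phagocytes with 2 or more peritoneal markers and with equal weights. Both settings leave out the gate, and leaving out the gate alone gave 0.06. The cause was not tested, except that leaving out gated cells removes most *Serpinb2* UMIs by construction. With 0 to 28 UMIs per class outside the gate in the PBS library, low levels of *Serpinb2* there are limited by depth, and without replicate libraries no difference can be set against animals.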

Other observations

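Cells of the platelet and pancreatic acinar gates were found after anti–PD-1 only (20 and 39 cells). The platelet gate had 320 CPM of *Plat*, with all 24 UMIs in 1 cell, and 40.0 CPM of *Serpinb2*, the latter from 3 UMIs in 3 cells. Mesothelial cells, the lining of the body cavity, numbered 47 after PBS and 26 after anti–PD-1, with 477 and 483 CPM of *Thbs1*, 112 and 81.3 CPM of *Plat*, and 4.99 and 19.1 CPM of *Serpinb2* from 2 and 4 UMIs. These classes are below 50 cells in at least 1 library and were not compared.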
